A study of Homo sapiens with 6 samples.

Results

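The EGFR family comprises 4 receptor tyrosine kinases, EGFR, ERBB2, ERBB3 and ERBB4, and the peptide ligands that bind them. The 10 genes described here were the 4 receptors and 6 ligands (EREG, AREG, HBEGF, TGFA, BTC and EGF), found by symbol among the 20289 genes of the deposited table. RNA was sequenced from human T24 cells, an established bladder cancer line, after lipofection with a control plasmid (label Vector, n = 3) or with a pcDNA3.1 plasmid built to overexpress LINC00665 (label LINC00665, n = 3), a long RNA that encodes no protein. Both labels name the same cell line, medium and transfection reagent. The series' design text speaks of 3 independent experiments, without saying which libraries belong to which. No clone and no time after transfection are stated. Levels were measured in bulk RNA, where fewer cells of a type and less RNA per cell cannot be told apart.

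A ligand of this family drives pairs of receptors together, and the paired kinases then switch on the RAS-ERK and PI3K cascades. The ligands are made as membrane-anchored precursors, and proteases of the ADAM class release the active peptide. AREG and TGFA bind EGFR, and HBEGF, EREG and BTC bind EGFR and ERBB4. The neuregulins bind ERBB4, and of them NRG1 and NRG2 also bind ERBB3. In urothelium, EGFR is best known from the basal layer, and loops in which tumour cells make both receptor and ligand are a known feature of bladder cancer.

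Checked for mix-ups, 3 of 6 libraries failed to match the labelled line, so groups are named by label and directions are given as the LINC00665 label relative to the Vector label. No comparison between the labels could be made without those libraries, and line and plasmid cannot be told apart. Depth was 17289788 to 22725687 expected counts per library. LINC00665 itself is absent from the rows analysed here (0 matches), so the overexpression was not checked. The 14 urothelial markers summed to 20.9 to 26.4 CPM (counts scaled to library size) under the Vector label and to 3890 to 4430 CPM under the LINC00665 label. The 11 urothelial markers tested were higher there, but 7 of them passed the filter on low counts through the LINC00665 label alone, which ties their direction to the filter. UPK1A, too low to test, went the other way with 6, 20 and 7 counts under the Vector label and 0, 0 and 2 under the LINC00665 label. KRT20 was at 0 under both labels, and UPK3A and GRHL3 were at 0 under the Vector label. The 13 kidney markers summed to 381 to 545 CPM under the Vector label and to 34.1 to 36 CPM under the LINC00665 label, with 5 of 6 tested lower and 1 higher. Of these, 4 of the lower passed the filter through the Vector label alone and the higher one through the LINC00665 label alone, and UMOD, SLC12A1 and SLC12A3 were at 0 under both. Leukocyte (7 genes), fibroblast (6) and endothelial (5) markers summed to at most 2.84 CPM under the Vector label and to 5.63 to 6.94, 83.5 to 95.5 and 11.5 to 13.4 CPM under the LINC00665 label. The 8 that were tested were higher there, 7 of them having passed the filter through that label alone, and PTPRC and LYZ were at 0 under the LINC00665 label. The part of these markers in the results below was not tested.

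Summed ligand mRNA was far more abundant under the LINC00665 label, and the receptors moved in both directions. HBEGF, AREG, TGFA and EREG rose, ERBB3 rose, and ERBB4 fell. EGFR, ERBB2 and BTC did not pass the test, and EGF was too low to enter it. Of the 10 genes, 9 passed the filter on low counts. By edgeR's quasi-likelihood test, 6 of these 9 had a Benjamini-Hochberg adjusted p under 0.05, 5 higher and 1 lower. That is 66.7% of the members tested, close to the 63.5% called among all 13552 genes tested, where 34.2% were higher and 29.3% lower. The number of members called is therefore no result about the family, and the sizes and directions below are given gene by gene. The groups did not overlap for 7 of the 9 tested members, against 70.2% of all genes tested. In 6 of these members the LINC00665 label was above (37.9% of all genes) and in 1 below (32.3%). A permutation test of 3 against 3 libraries cannot go below p = 0.1, and exact two-sided values are given with the tested members.

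**Figure D1:**
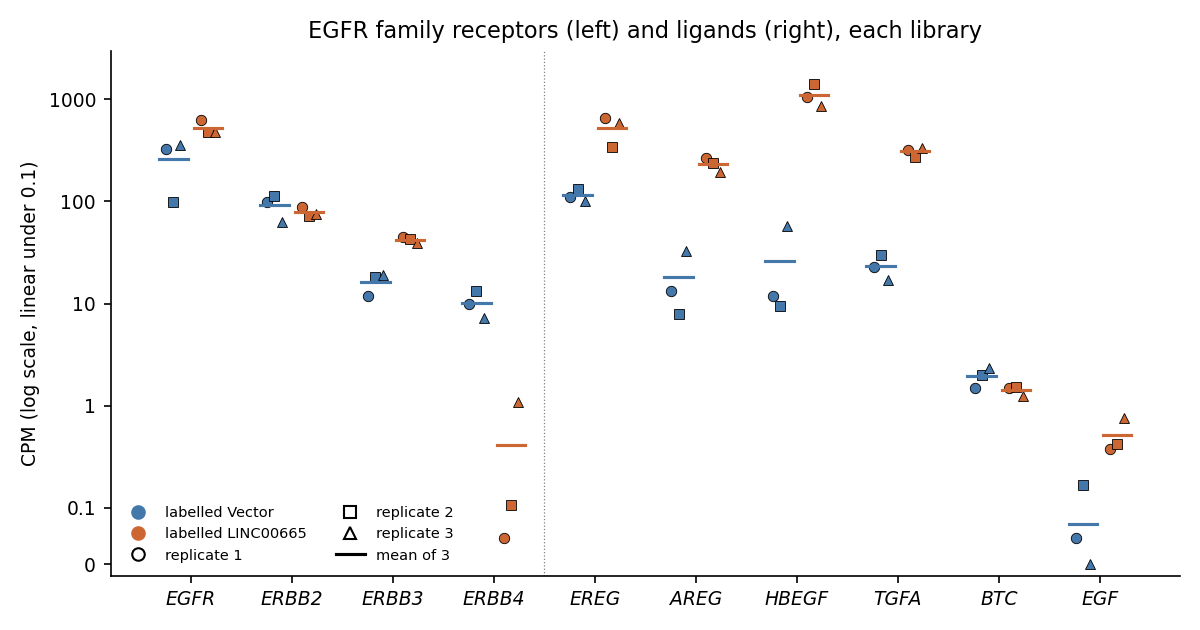
CPM of each receptor and ligand in each of the 6 libraries, on a log axis that is linear under 0.1 CPM; symbols mark the replicate and bars the mean of 3. HBEGF, AREG, TGFA and EREG stood above every Vector-label library in all 3 LINC00665-label libraries, EGFR was low in Vector 2, and ERBB4 was below the Vector-label range.

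EGFR, a receptor of all 6 ligands, had more counts than any other receptor in 5 of the 6 libraries. Its CPM was 326, 98.1 and 361 in Vector 1, 2 and 3 and 632, 481 and 477 in LINC00665 1, 2 and 3. The groups did not overlap, and Vector 2 stood far below the other two Vector-label libraries. The means were 262 ± 143 and 530 ± 88.5 CPM (SD, n = 3), and the fitted log2 fold change was 1.02 (SE 0.42, 95% interval 0.05 to 1.98). This did not pass the threshold over all genes (edgeR adjusted p = 0.062, range over the alternatives 0.013 to 0.15; exact permutation p = 0.1). Without Vector 2 the difference was smaller, 0.62, with less spread, and passed (edgeR adjusted p = 0.013). Without Vector 3 (1.32), and in fits with DESeq2, limma-voom and the replicate number as a block, it passed too, so the call of EGFR depends on the setting. Among all genes, those fits called 66.2% without Vector 3, 67.1% without Vector 2, 65.0% with DESeq2, 63.8% with limma-voom and 58.5% with the block. The fits in which EGFR did not pass called 63.4% with relative log expression size factors, 66.0% with total-count scaling, 54.4% with no filter, 63.0% with a minimum mean of 1 CPM, 63.9 and 63.5% on log2 FPKM, 57.8% without Vector 1, and 54.4, 56.1 and 54.7% without LINC00665 1, 2 and 3. Vector 2 was more than 3-fold below both other Vector-label libraries for 103 of 13552 genes tested (0.76%), EGFR among them.

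ERBB2, the receptor with no known ligand of its own, was 99.3, 114 and 63.3 CPM in Vector 1 to 3 and 88.6, 72.3 and 76.2 CPM in LINC00665 1 to 3. The ranges overlapped, and the log2 fold change of -0.22 (SE 0.22, 95% interval -0.73 to 0.29) did not pass (edgeR adjusted p = 0.41; exact permutation p = 0.6). Without Vector 3, its lowest Vector-label library, the value was -0.43 and passed (edgeR adjusted p = 0.031), and without Vector 2 it was -0.05. ERBB2 overlaps PGAP3 and MIEN1 in the annotation, and ERBB3 overlaps AC034102.2. The use of strand in the counting is not given in the sources used here.

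ERBB3, which has little kinase activity and signals through its partners, was 11.9, 18.3 and 19.1 CPM under the Vector label and 44.5, 43.2 and 39 CPM under the LINC00665 label. All LINC00665-label libraries were above all Vector-label libraries. It rose by 1.36 on the log2 scale (SE 0.2, edgeR adjusted p = 0.00053, exact permutation p = 0.1), from 16.4 ± 3.93 to 42.2 ± 2.84 CPM (SD, n = 3). ERBB3 passed under every alternative fitted.

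ERBB4, the second neuregulin receptor, went the other way. It stood at 9.88, 13.3 and 7.19 CPM under the Vector label and at 0.0465, 0.105 and 1.08 CPM under the LINC00665 label, which is 1, 2 and 20 counts. The groups did not overlap, and most of the remaining counts were in LINC00665 3. The log2 fold change was -4.65 (SE 0.74, edgeR adjusted p = 0.00076, exact permutation p = 0.1), and without LINC00665 3 it was -6.99. ERBB4 passed the filter on low counts through its Vector-label libraries only, which ties its direction to the filter. The few counts of LINC00665 3 were also spread over a shorter length, a value that rests on 20 counts. Counts divided by FPKM (fragments scaled to gene length and depth) and depth give the length over which the authors spread a gene's reads, and for ERBB4 that was 11.9 to 12.1 kb in the Vector-label libraries and 3.27 kb in LINC00665 3.

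In the GENCODE annotation of GRCh38, EGFR lies on chromosome 7 at 55019021 to 55211628, ERBB2 on chromosome 17 at 39687914 to 39730426 and ERBB3 on chromosome 12 at 56076799 to 56103505, all on the plus strand, and ERBB4 on chromosome 2 at 211375717 to 212538841 on the minus strand. Per length, the receptors kept the order EGFR, ERBB2, ERBB3, ERBB4 in every library except Vector 2, where ERBB2 stood above EGFR. EGFR was at 35.8, 10.4 and 38.9 FPKM under the Vector label and at 64.8, 48.7 and 49.5 FPKM under the LINC00665 label. The ratio of EGFR to ERBB2 FPKM was 1.28, 0.316 and 1.96 in Vector 1 to 3 and 2.99, 3.03 and 2.56 in LINC00665 1 to 3. EGFR made up 65 ± 2.78% of the summed receptor FPKM under the LINC00665 label and 45 ± 20.8% under the Vector label (SD, n = 3), where its share ran from 21.4 to 60.5%. The shares of EGFR and ERBB2 under the Vector label, 45% and 46.7 ± 19%, do not differ beyond their spread. ERBB3 held 12 ± 1.97% under the LINC00665 label and 6.71 ± 2.33% under the Vector label, and ERBB4 0.138 ± 0.228% and 1.55 ± 0.714%. These shares are a description and were not tested.

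Among the ligands, HBEGF showed the largest ratio of the 10 genes. Heparin-binding EGF-like growth factor is an early response gene whose precursor is also the receptor of diphtheria toxin. It was at 11.8, 9.44 and 57.6 CPM in Vector 1 to 3 and at 1050, 1420 and 864 CPM in LINC00665 1 to 3. The groups were far apart, and Vector 3 was more than 3-fold above the other Vector-label libraries, as were 51 of 13552 genes tested (0.376%). The means of 26.3 ± 27.1 and 1110 ± 282 CPM (SD, n = 3) are in a ratio of 42.2, and the log2 fold change was 5.4 (SE 0.74, edgeR adjusted p = 0.00032). Without Vector 3 it was 6.7.

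Amphiregulin, AREG, a low-affinity EGFR ligand, was at 13.3, 7.94 and 32.8 CPM under the Vector label and at 267, 240 and 196 CPM under the LINC00665 label. As with HBEGF, Vector 3 was the highest Vector-label library, and the groups did not overlap. AREG rose by 3.7 on the log2 scale (SE 0.49, edgeR adjusted p = 0.00026), or by 4.45 without Vector 3. Transforming growth factor alpha, TGFA, was at 22.9, 30 and 16.9 CPM under the Vector label and at 317, 273 and 338 CPM under the LINC00665 label. TGFA rose by 3.73 (SE 0.24, edgeR adjusted p = 4.5e-06), with the lowest adjusted p of the family, and Vector 3 was here the lowest of its label. Its fold change ranged from 3.47 to 3.95 over the alternatives.

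Epiregulin, EREG, which binds EGFR and ERBB4, had the most counts of the 6 ligands in every Vector-label library. Per length it led in Vector 1 and Vector 2 only. It stood at 110, 132 and 102 CPM in Vector 1 to 3 and at 652, 344 and 587 CPM in LINC00665 1 to 3. The Vector-label libraries were close together, whereas LINC00665 2 was well below the other two of its label. EREG rose by 2.21 on the log2 scale (SE 0.25, edgeR adjusted p = 0.00012), the smallest rise of the 4 ligands that passed. The exact permutation p was 0.1 for each of the 4, the smallest possible. The order of their libraries within a label differed from gene to gene: LINC00665 2 held the highest HBEGF but the lowest EREG and TGFA.

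BTC and EGF, 2 further EGFR ligands, were scarce. Betacellulin, BTC, was at 1.49, 2 and 2.33 CPM under the Vector label and at 1.49, 1.52 and 1.24 CPM under the LINC00665 label, and the ranges overlapped. Its log2 fold change of -0.45 (SE 0.3, 95% interval -1.15 to 0.25) did not pass (edgeR adjusted p = 0.23; exact permutation p = 0.2). EGF, the founding ligand of the family, had 1, 3 and 0 counts in Vector 1 to 3 and 8, 8 and 14 counts in LINC00665 1 to 3. Scaled to the libraries, the LINC00665 label held 7.46 times the EGF counts of the Vector label, with an exact 95% binomial interval of 2.63 to 29.1 that covers counting error only. EGF failed the filter on low counts. In a fit with no filter its log2 fold change was 2.79 (SE 0.89, edgeR adjusted p = 0.024).

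**Figure D2:**
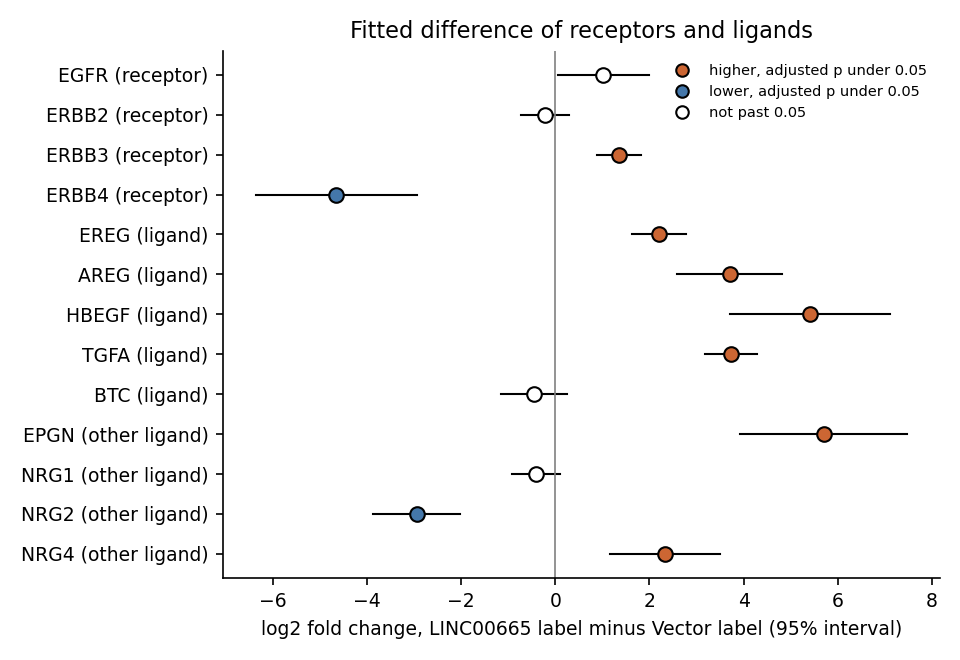
Fitted log2 fold change (points) and 95% interval (lines) for the 9 tested receptors and ligands of the family and for 4 further ligands. Filled points passed an adjusted p of 0.05. Among the 9 members HBEGF was highest at 5.4 and ERBB4 lowest at -4.65; EPGN, one of the further ligands, stood at 5.7, and the interval of EGFR runs from 0.05 to 1.98.

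The difference between the labels was unequal from ligand to ligand, so the order of the ligands differed between the labels. Per length, EREG led in Vector 1 and Vector 2 with 25.4 and 29.8 FPKM, while in Vector 3 AREG at 28.2, HBEGF at 25.9 and EREG at 23.3 FPKM were close. Under the LINC00665 label HBEGF led in all 3 libraries with 421, 552 and 356 FPKM, ahead of AREG with 205, 179 and 154 FPKM. EREG followed AREG with 134, 68.4 and 124 FPKM, and TGFA, with 85.2, 69.7 and 92.7 FPKM, stood close to EREG in LINC00665 2. HBEGF made up 54.1 ± 8.14% of the summed ligand FPKM under the LINC00665 label and 16.8 ± 12.6% under the Vector label (SD, n = 3), and EREG 13.6 ± 4.97% and 46.2 ± 16.1%. AREG held 22 ± 1.96% and 23.5 ± 10.4%, and TGFA 10.3 ± 2.37% and 12.2 ± 6.26%, so the shares of these 2 ligands moved by less than their spread. Without Vector 3 the Vector-label share of HBEGF was 9.56%. Summed over the 6 ligands, FPKM was 49.4, 50.6 and 82.9 under the Vector label and 845, 870 and 727 under the LINC00665 label. Summed over the 4 receptors it was 67.3, 48.5 and 64.2 and then 95.9, 74.6 and 79.8. Ligand mRNA was thus 0.734 to 1.29 times receptor mRNA under the Vector label and 8.82 to 11.7 times under the LINC00665 label, as a description of these libraries.

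**Figure D3:**
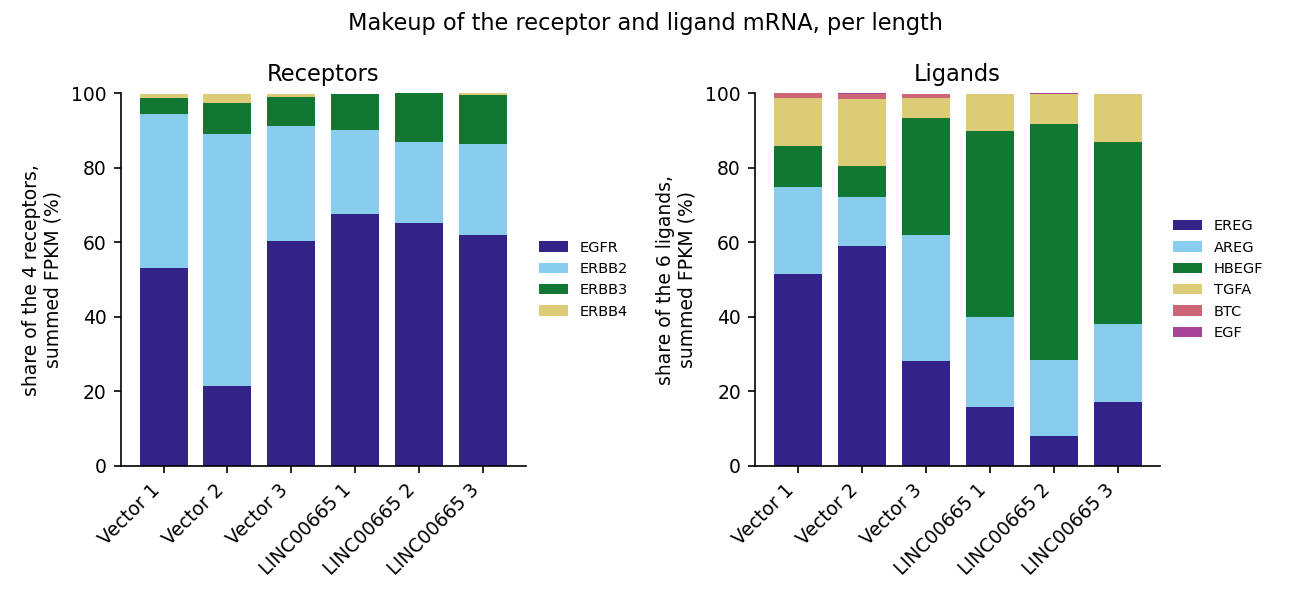
Share of each receptor (left) in the summed FPKM of the 4 receptors and of each ligand (right) in that of the 6 ligands, in percent, for each library. EREG was the largest ligand share in Vector 1 and 2 and HBEGF in all 3 LINC00665-label libraries; ERBB2 exceeded EGFR in Vector 2.

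EREG and AREG are neighbours on chromosome 4, and so are EPGN and BTC. In GRCh38, EPGN lies at 74308473 to 74315307, EREG at 74365143 to 74388751 and AREG at 74445134 to 74455009 on the plus strand, and BTC at 74744759 to 74794686 on the minus strand. HBEGF lies on chromosome 5 at 140332843 to 140346631 and TGFA on chromosome 2 at 70447280 to 70554193, both on the minus strand. EPGN, a ligand of EGFR, rose from 0.233, 0 and 0 CPM to 6.05, 2.84 and 5.17 CPM (edgeR adjusted p = 0.00031). Its 5 counts under the Vector label against 280 make it 55.7 times higher (95% counting interval 23.6 to 173), and it passed the filter through the LINC00665 label alone. All 5 counts were in Vector 1, and without that library the fitted log2 fold change went from 5.7 to 9.5, a value that depends on the prior count. Of the 4 ligand genes of this stretch, 3 rose and BTC, about 300 kb from AREG (299.6 kb between starts), did not pass. Within 1000 kb of AREG, 13 genes were tested, and 11 of them were higher, 0 were lower and 2, BTC and MTHFD2L, did not pass, where 34.2% of all genes tested were higher and 29.3% lower. The 11 include the chemokine genes CXCL8, CXCL1, CXCL2, CXCL3, CXCL5 and CXCL6. For RASSF6, CXCL5, CXCL6 and EPGN the direction is tied to the filter on low counts. This window was chosen after the values were seen.

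**Figure D4:**
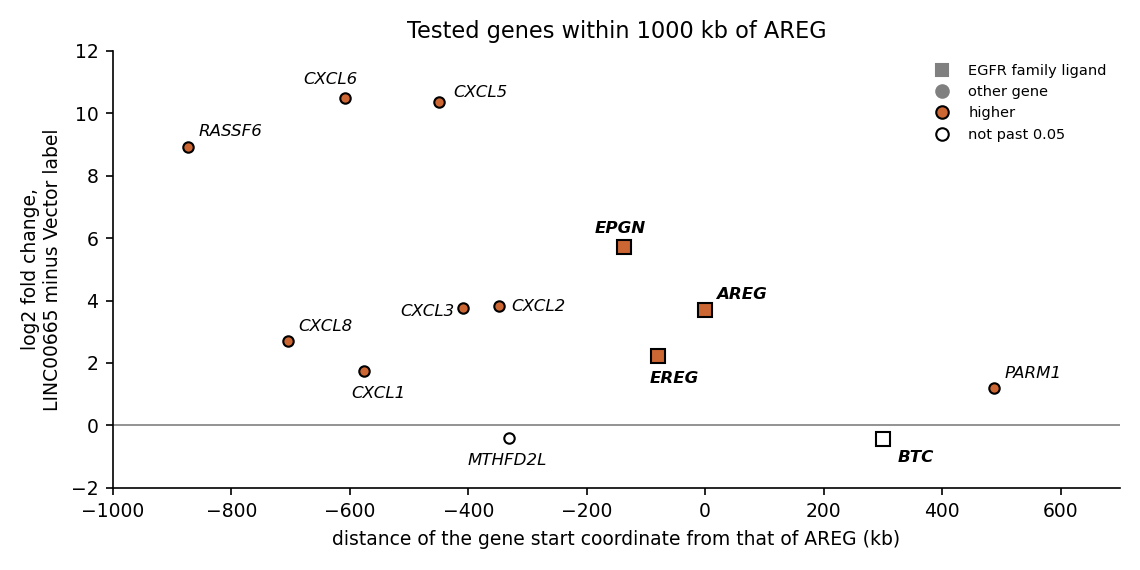
Fitted log2 fold change of the 13 tested genes within 1000 kb of AREG against the distance between start coordinates in kb; squares are EGFR family ligands and filled symbols passed an adjusted p of 0.05. EPGN, EREG and AREG were higher and BTC was not called; the heights of RASSF6, CXCL5, CXCL6 and EPGN rest on few Vector-label counts.

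The 250 bases upstream of the RefSeq start (GRCh38.p14) are printed for HBEGF, AREG and EREG, the 3 ligands with the highest mean FPKM under the LINC00665 label, and for BTC, the neighbour of AREG and EREG that did not pass. Of the 10 members, 9 had such a window. Capitals mark matches, on either strand, to the cAMP response element TGACGTCA, the AP-1 motif TGANTCA, the TATA motif TATAAA and the GC box GGGCGG. The windows are chr4:74444886-74445135 (plus) for AREG, chr4:74364895-74365144 (plus) for EREG, chr5:140346604-140346853 (minus) for HBEGF and chr4:74794524-74794773 (minus) for BTC, each given 5′ to 3′ on the strand of the gene.
AREG: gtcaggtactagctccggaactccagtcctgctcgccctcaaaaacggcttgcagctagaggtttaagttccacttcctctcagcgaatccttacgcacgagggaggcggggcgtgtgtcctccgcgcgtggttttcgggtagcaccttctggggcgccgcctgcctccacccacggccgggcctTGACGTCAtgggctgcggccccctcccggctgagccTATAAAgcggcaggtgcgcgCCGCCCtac
EREG: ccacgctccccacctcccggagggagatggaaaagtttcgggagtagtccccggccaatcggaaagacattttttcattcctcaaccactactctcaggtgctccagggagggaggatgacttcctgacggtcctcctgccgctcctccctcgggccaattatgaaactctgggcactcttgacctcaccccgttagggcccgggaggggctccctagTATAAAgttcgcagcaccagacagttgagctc
HBEGF: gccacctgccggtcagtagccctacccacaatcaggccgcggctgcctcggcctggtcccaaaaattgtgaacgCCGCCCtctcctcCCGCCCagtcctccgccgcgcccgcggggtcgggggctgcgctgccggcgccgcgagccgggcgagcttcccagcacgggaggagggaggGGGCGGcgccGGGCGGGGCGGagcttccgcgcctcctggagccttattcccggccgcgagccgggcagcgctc
BTC: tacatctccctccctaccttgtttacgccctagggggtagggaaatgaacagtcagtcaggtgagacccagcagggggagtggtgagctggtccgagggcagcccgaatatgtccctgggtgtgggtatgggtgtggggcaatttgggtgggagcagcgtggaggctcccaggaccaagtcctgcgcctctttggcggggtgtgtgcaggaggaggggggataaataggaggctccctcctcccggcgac

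AREG held a cAMP response element starting 65 bases before the start, a motif found in 1.65% of the 35116 RefSeq windows of the same length. AREG, EREG and EPGN each held TATAAA, starting 29, 32 and 29 bases before the start, against 10.7% of all windows. HBEGF had 5 GC boxes, of which those starting 63 and 58 bases before the start share a base. TGFA had 3, EGFR 2, and AREG and ERBB4 1 each, where 42.6% of all windows had at least 1. HBEGF, TGFA and EGFR windows were rich in G and C, at 76.4, 75.6 and 73.6% against a median of 58%. BTC held none of the 4 motifs. RefSeq starts differ from the GENCODE gene limits given above. The TGFA window, chr2:70553827-70554076, lies within the GENCODE gene. Each printed window overlaps its GENCODE gene in part, that of BTC for most of its length. AP-1 matches were found in the EGF and ERBB2 windows and in 6.57% of all. These matches are descriptions of the letters.

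The neuregulins, ligands of ERBB4 and in part of ERBB3, behaved differently from one another. NRG2 fell from 12.1, 14.4 and 5.23 CPM to 1.35, 1.21 and 1.56 CPM (log2 fold change -2.94, SE 0.4, edgeR adjusted p = 0.00032). NRG4 rose from 0.373, 0.111 and 0.155 CPM to 1.39, 1.12 and 0.861 CPM (2.33, SE 0.5, edgeR adjusted p = 0.0038), and it passed the filter through the LINC00665 label alone. Without Vector 1 the value for NRG4 was 3.01. NRG3 had 0 counts under the Vector label and 7 under the LINC00665 label and was not tested. NRG1 was the most abundant neuregulin under both labels, at 36.8, 29.9 and 52 CPM and at 31.7, 25.5 and 32.5 CPM, with overlapping ranges (log2 fold change -0.4, 95% interval -0.92 to 0.11, edgeR adjusted p = 0.14; exact permutation p = 0.3). For NRG1, the length over which reads were spread was 3.56, 3.1 and 2.75 kb in Vector 1 to 3 and 2.11, 1.94 and 2.16 kb in LINC00665 1 to 3, so the authors' FPKM means were nearly equal, 13.7 ± 5.51 and 13.6 ± 1.41 (SD, n = 3). The same length was 1.23 kb for AREG and 2.36 kb for HBEGF in all 6 libraries.

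Of the 8 genes that release or traffic the ligand precursors, 2 rose and 2 fell (50% called, against 63.5% of all genes), and the median log2 fold change was 0.26 against 0.03 over all genes. ADAM10, the main protease for EGF and BTC precursors, fell from 187 ± 37.1 to 73.3 ± 5.39 CPM (log2 fold change -1.35, edgeR adjusted p = 0.00024). ADAM17, the main protease for the AREG, EREG, HBEGF and TGFA precursors, had a log2 fold change of 0.28 (95% interval -0.08 to 0.63) that did not pass (edgeR adjusted p = 0.15). RHBDL2, a rhomboid protease, had 4 counts under the Vector label and 6.72 ± 1.01 CPM under the other (edgeR adjusted p = 3.2e-06). Its scaled counts were 99.5 times higher (95% counting interval 38.5 to 367), and it passed the filter through the LINC00665 label alone. FRMD8, a stabiliser of the ADAM17 complex, fell from 68.7 ± 17.9 to 35.7 ± 2.22 CPM (edgeR adjusted p = 0.0033). RHBDF2, an iRhom partner of ADAM17, rose from 59 ± 6.04 to 81.4 ± 3.85 CPM (edgeR adjusted p = 0.018), a call lost with total-count scaling (adjusted p = 0.081) on log2 FPKM (0.074 and 0.075), and without Vector 1 (0.062), LINC00665 1 (0.071) or LINC00665 2 (0.056). ADAM17 was named after its values were seen.

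Among 19 genes that restrain the receptors or govern their turnover, 6 rose and 4 fell (52.6% called, against 63.5% of all genes, median 0.2). LRIG1 and LRIG3, transmembrane regulators of the receptors, rose from 5.88 ± 2.63 to 36.6 ± 2.38 CPM and from 7.53 ± 2.85 to 34.7 ± 4.44 CPM (edgeR adjusted p = 0.00016 and 0.00023). The ubiquitin ligase CBLB rose from 11.5 ± 3.49 to 32.2 ± 1.08 CPM (edgeR adjusted p = 0.00055). Its epithelial relative CBLC had 1 count under the Vector label and 55.9 ± 2.82 CPM under the other, 3290 times higher (95% counting interval 591 to 130000, edgeR adjusted p = 2.4e-07), and it passed the filter through the LINC00665 label alone. That count was in Vector 3, and without it the fitted log2 fold change went from 11.22 to 13.1, again dependent on the prior count. CBL itself (log2 fold change -0.2, edgeR adjusted p = 0.43) and the feedback inhibitor ERRFI1 (-0.16, adjusted p = 0.77) did not pass; both were named after their values were seen. ERRFI1 was at 296 CPM in Vector 2 and at 884 and 961 CPM in Vector 1 and 3, so its lowest Vector-label library was the same as that of EGFR.

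Of 13 adaptor genes, 4 rose and 3 fell (53.8% called, against 63.5% of all genes, median -0.14). SHC1, the adaptor that links phosphorylated receptors to GRB2, fell from 926 ± 87.3 to 172 ± 8.05 CPM (log2 fold change -2.43, SE 0.14, edgeR adjusted p = 2.6e-06), and CRK from 159 ± 11.1 to 57 ± 3.11 CPM (adjusted p = 3.4e-05). GRB7, an adaptor that binds ERBB2 and ERBB3 and whose gene lies beside ERBB2, rose by 4.36 on the log2 scale, from 6.36 ± 2.42 to 130 ± 7.59 CPM (SE 0.28, edgeR adjusted p = 4.5e-06), while ERBB2 did not pass. GAB2, a scaffold of PI3K signalling, rose from 13.5 ± 2.95 to 63.1 ± 5.4 CPM (edgeR adjusted p = 2.6e-05).

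The RAS-ERK and PI3K core moved both ways, with 5 of 21 genes higher and 6 lower (52.4% called, against 63.5% of all genes, median 0.06). MAP2K2 and MAP2K1, the kinases that activate ERK, both rose, MAP2K2 from 128 ± 17.2 to 251 ± 22.5 CPM and MAP2K1 from 73.1 ± 8.56 to 130 ± 7.27 CPM (edgeR adjusted p = 0.00074 and 0.0012). The GTPase NRAS fell from 253 ± 31.3 to 75.4 ± 13.4 CPM (edgeR adjusted p = 6.8e-05). Among 10 genes known as transcriptional outputs of ERK, 6 rose and 1 fell, with a median of 1.5. That is 70% called, near the 63.5% of all genes, of which 34.2% were higher and 29.3% lower. DUSP4, a phosphatase that switches ERK off, rose from 0.408 ± 0.097 to 571 ± 46.2 CPM, and PHLDA1 from 189 ± 44.7 to 685 ± 35 CPM (edgeR adjusted p = 1e-07 and 6.8e-05). EPHA4 had 0 counts under the Vector label and 10.7 ± 1.6 CPM under the other, which is at least 210-fold higher when 3 counts over the group are taken as the floor (edgeR adjusted p = 1.2e-05). ETV5, an ETS transcription factor, fell from 85.6 ± 1.92 to 20.7 ± 2.58 CPM (edgeR adjusted p = 9.3e-06). DUSP4 and EPHA4 passed the filter through the LINC00665 label alone.

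**Figure D5:**
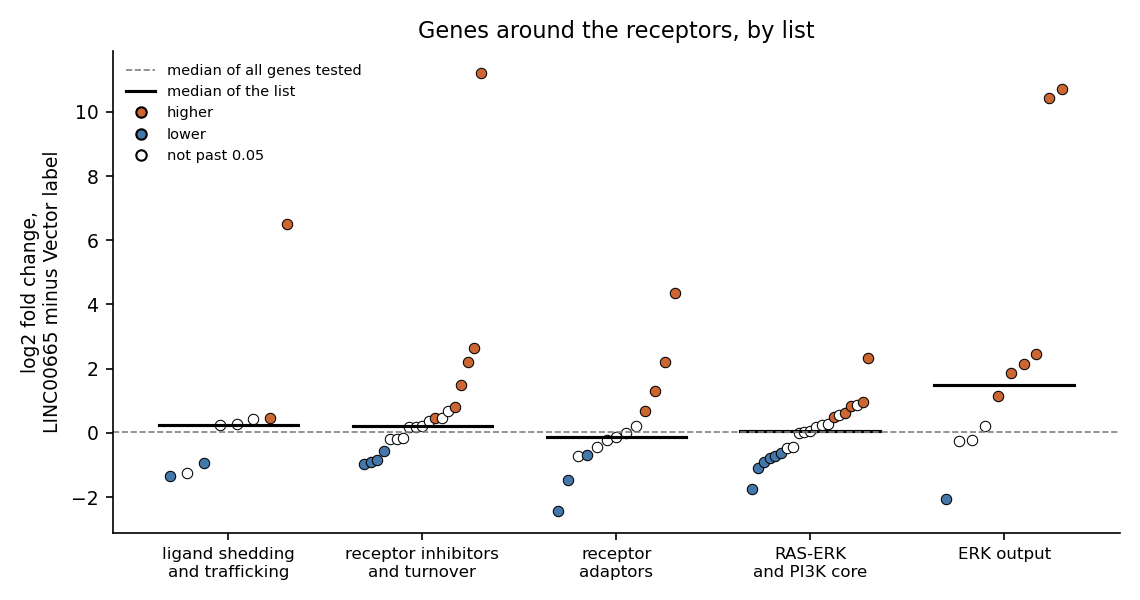
Fitted log2 fold change of each tested gene in 5 lists of genes around the receptors; black bars are list medians, the dashed line is the median of all genes tested (0.03), and filled points passed an adjusted p of 0.05. The ERK output list has the highest median, 1.5; the adaptors and the RAS-ERK and PI3K core hold genes on both sides of 0.

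The genes whose levels lay nearest those of EGFR, by root mean square difference of log2 CPM over the 6 libraries, were the amino acid transporter SLC1A5 (0.39), the replication helicase subunit MCM7 (0.45) and the syndecan SDC4 (0.53). SLC1A5, MCM7 and SDC4 were, like EGFR, lowest in Vector 2, at 134, 194 and 137 CPM. Nearest to HBEGF, the ligand with the highest mean FPKM, were PTGS2 (0.71), SAT1 (0.91) and STC2 (0.97), each highest within the Vector label in Vector 3, at 26.1, 31.8 and 84.9 CPM. These distances describe levels in 6 libraries that fall into 2 separate groups. The genes were picked for likeness over these same libraries, so a shared lowest or highest library follows in part from the choice.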

How the data were processed

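The authors deposited 1 table that holds, for each gene, expected counts per library with no normalisation and FPKM values normalised by the authors for length and depth, per the file headers. HISAT2 2.0.4 and hg38 are named in the submitters' processing notes with no role; counting tool, annotation and strand use: not given in the sources used here. Expected counts were rounded, passed through filterByExpr, scaled with edgeR's TMM factors and tested across all genes with edgeR 4.0.16 in R 4.3.3 (glmQLFit, glmQLFTest, no covariate). P-values were Benjamini-Hochberg adjusted over 13552 genes. CPM values use the same scaling. Standard errors come from the fold change and F statistic. Intervals cover counting error only where said so, as reads carry no molecular identifiers.

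Samples were grouped by their labels. No 2 libraries of a label agreed within sampling noise (chi-square per degree of freedom 9.85 to 116). Members and lists were chosen with earlier results of these data known. Named genes were the 10 members, up to 4 genes per list by smallest p, any further ligand, and the 3 genes nearest EGFR and the leading ligand in level; others are marked. Alternatives used DESeq2 1.42.0, limma 3.58.1, other scalings, filters and FPKM pseudocounts, a replicate block and leaving out each library. The edgeR steps were checked on simulated counts in which few genes were changed. That check did not cover a setting in which most genes are called, as here. Coordinates are from GENCODE v29 (GRCh38) and sequences from RefSeq (GRCh38.p14). One gene that the naming rule selects is not reported here.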

Additional observations from a re-analysis of the deposited data

How the results depend on the processing

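Of 135 alternative values of the 9 tested members, 129 kept their direction and their side of the threshold and 6 came to pass it; 0 reversed. EGFR passed with DESeq2 (1.04), limma-voom (1.21) and the replicate block (1.21), and when leaving out libraries its log2 fold change ran from 0.62 to 1.32, passing without Vector 2 and without Vector 3. ERBB2 ran from -0.43 to -0.05 when leaving out libraries and passed without Vector 3, so the number of members called lower ran from 1 to 2. ERBB4 was -0.77 on log2(FPKM + 1) and -2.53 on log2(FPKM + 0.1), where the pseudocount shrinks changes of low genes. NRG1 reversed on the FPKM scale, to 0.05 on log2(FPKM + 1) and 0.06 on log2(FPKM + 0.1), without passing. With CPM in place of FPKM, which ignores length, the mean shares under the LINC00665 label were 81.2% for EGFR, 12.2% for ERBB2, 6.54% for ERBB3, 24.4% for EREG, 10.7% for AREG and 14.3% for TGFA, and under the Vector label 27.7% for ERBB2, 63.2% for EREG and 9.42% for AREG. All 45 counts over all genes and all 54 counts over the pathway lists stayed within 1.5 times. Total-count scaling moved the median log2 fold change of all genes from 0.03 to -0.13. Deviations of same-numbered libraries were weakly correlated and of mixed sign (0.152, -0.132 and -0.154), so the numbers were not taken as pairs. The replicate block gave 7924 calls against 8611. Depth limits EGF, NRG3 and ERBB4, which had 0 to 20 counts in the libraries of at least 1 label. The same holds for EPGN, NRG4, RHBDL2, CBLC, DUSP4 and EPHA4 under the Vector label. In 3 of 6 libraries the label's line was not matched, and this was not separable from the comparison.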
